A study of Mus musculus with 16 samples.

Results

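Vmn2r3 and Tenm4 are 2 genes of the 53714 in the table that had almost no reads in control mouse livers and many reads in livers without hepatocyte Slc25a47. They were chosen by that pattern in the raw counts: near 0 in fed and fasted controls, clearly counted in fed and fasted knockouts. Their difference between genotypes is therefore given as a description, without a test. Vmn2r3 reached 1521 to 7111 reads in the 8 knockout libraries against 0 to 4 in the 8 control libraries, and Tenm4 reached 192 to 522 against 0 to 4.

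The livers came from 16 male C57BL/6 mice aged 9 weeks, in 4 groups of 4 libraries. All 16 carried the Slc25a47tm1c(EUCOMM)Hmgu allele by their strain label, an allele whose critical part can be removed by Cre recombinase. Fed KO and fasted KO mice were Slc25a47hep-/-, and fed WT and fasted WT mice were Slc25a47hep+/+. Fed mice had chow and fasted mice an overnight fast. The driver of the recombination is not given in the sources used here, and a liver sample holds other cells beside hepatocytes. RNA was made into stranded poly(A) libraries. Nothing in the labels ties a library to more than a title, so p-values measure the spread between these libraries. Since the samples are whole liver, more cells expressing a gene and more RNA per cell cannot be told apart.

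Vmn2r3 encodes a type 2 vomeronasal receptor, a G protein-coupled receptor with a large extracellular domain. Such receptors sense pheromones on basal neurons of the vomeronasal organ, signal through the G protein subunit Gnao1 and the channel Trpc2, and can occur with H2-M molecules of the H2-M10 family. Tenm4 encodes teneurin 4, a large transmembrane protein that joins cells through latrophilin and other partners and is known for roles in axon guidance and myelination. It was first described as DOC4, a gene downstream of the stress transcription factor CHOP.

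In the GENCODE M21 annotation of GRCm38, Vmn2r3 (ENSMUSG00000091572) spans chr3:64257215-64289709 on the minus strand, with 9 transcripts of which 3 are protein coding. It lies in a cluster of close relatives, so reads could in principle be shared between copies. Over the full coding transcript its nearest relative, Vmn2r7, was 88.3% identical over 2686 aligned bases, and the pseudogene Vmn2r-ps3 was 92.1% identical over 1101 bases. A stretch of 90 bases from the last coding exon shows how the copies differ. It is printed for Vmn2r3 at chr3:64259854-64259943, Vmn2r7 at chr3:64691553-64691642 and Vmn2r5 at chr3:64491714-64491803, all on the minus strand of GRCm38 and read from the transcripts of the annotation. Capitals mark the bases that differ from Vmn2r3.
Vmn2r3: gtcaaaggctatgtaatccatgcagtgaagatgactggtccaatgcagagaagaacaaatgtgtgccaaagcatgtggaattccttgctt
Vmn2r7: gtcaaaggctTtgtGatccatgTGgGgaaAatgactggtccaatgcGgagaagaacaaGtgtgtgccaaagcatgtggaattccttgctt
Vmn2r5: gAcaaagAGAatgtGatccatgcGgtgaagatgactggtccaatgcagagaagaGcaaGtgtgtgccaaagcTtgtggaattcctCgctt
Over these 90 bases Vmn2r7 differed from Vmn2r3 at 8 and Vmn2r5 at 10. Of all 50-base words in the exons of Vmn2r3, 96.91% occurred in no other annotated gene. In its 2670-base coding transcript the share was 84.09%, the rest being shared with relatives of the cluster, so a read of that length from there would mostly point to 1 gene. Reads that aligned to several places were set apart by the authors' counting and took 40.4% to 45.8% of counts in WT and 32.0% to 39.3% in KO libraries.

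Tenm4 (ENSMUSG00000048078) spans chr7:96171246-96911093 on the plus strand, 739848 bases with 12 transcripts, 6 of them protein coding. Of the 50-base words in its exons 95.79% were its own, and the other 894 words lay where the opposite-strand gene C230038L03Rik overlaps it. That gene had 4 reads over the 8 WT and 7 over the 8 KO libraries. The 250 bases before the first RefSeq start of Tenm4, at chr7:96170994-96171243 on the plus strand of GRCm38.p6, are shown because this start lies 2 bases from the start of the gene in GENCODE. Capitals mark CpG dinucleotides.
Tenm4 upstream: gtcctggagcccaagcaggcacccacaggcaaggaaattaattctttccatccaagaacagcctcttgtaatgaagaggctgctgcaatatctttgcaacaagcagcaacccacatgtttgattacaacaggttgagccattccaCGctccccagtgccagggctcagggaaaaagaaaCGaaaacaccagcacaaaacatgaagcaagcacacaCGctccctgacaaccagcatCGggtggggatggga
This window held 50.8% G or C and 4 CpG, against medians of 52.4% and 6 over 32851 RefSeq windows of the same length. A window before the other Tenm4 start held 51.6% and 8 CpG. The RefSeq start of Vmn2r3 lies inside a GENCODE exon of the gene, so its window is not upstream sequence of the longer annotated transcript and is not shown.

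Letters of 6 motifs were searched on both strands in the 3 windows of the members, each 250 bases before and 50 after a RefSeq start. They were TTGCATCA, the core of the C/EBP-ATF response element, TGATGNAA, which includes its reverse complement, TGACGTCA of the cAMP response element, TTCNNNGAA of STAT5, CCAAT of NF-Y and the TATA box TATAAA. None of the 6 occurred in any of the 3 windows, of which that of Vmn2r3 is not upstream of its longer annotated transcript. Over all 32851 windows the shares with a match were 0.895%, 3.97%, 1.79%, 8.30%, 37.4% and 13.6%, in that order. The absence says only that these letters are not in these windows.

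Each library held 19.6 to 27.3 M reads assigned to genes. Slc25a47, the targeted carrier gene, had 9079 to 21168 reads in the WT and 2006 to 7875 in the KO libraries, with no overlap. In CPM, which are reads per M gene reads with the library size scaled by TMM, it stood at 637 ± 154 (SD, n = 4) in fed WT, 126 ± 32.2 in fed KO, 950 ± 129 in fasted WT and 261 ± 77.2 in fasted KO livers. The gene counts do not separate the exons. All 8 hepatocyte markers were counted in every group, with summed levels of 93497 to 140335 CPM in WT and 83772 to 129627 CPM in KO libraries.

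Vmn2r3 had 0, 2, 0 and 0 reads in fed WT replicates 1 to 4 and 1, 0, 4 and 0 in fasted WT replicates 1 to 4. In fed KO replicates 1 to 4 it had 4417, 3197, 4194 and 3345 reads, and in fasted KO replicates 1 to 4 it had 1521, 2554, 4425 and 7111. The lowest KO library stood far above the highest WT library. All fed KO libraries lay close together, whereas the lowest and the highest KO libraries were both fasted. The mean level was 156 ± 24.3 CPM (SD, n = 4) in fed KO and 157 ± 94.0 CPM in fasted KO livers, against 0.02 ± 0.04 and 0.0579 ± 0.0843 CPM in fed and fasted WT livers. A count of 3 reads, the number that a count of 0 still allows, equals 0.115 to 0.161 CPM in these libraries. The KO to WT ratio was 6751 in the fed state, from 15153 against 2 reads, with a 95% exact counting interval of 1869 to 55754. In the fasted state it was 2517 (1078 to 7753), from 15611 against 5 reads. These intervals cover counting error only.

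Tenm4 had 3, 1, 0 and 0 reads in fed WT replicates 1 to 4 and 3, 4, 1 and 2 in fasted WT replicates 1 to 4. It had 519, 192, 522 and 291 reads in fed KO and 211, 308, 362 and 510 in fasted KO replicates 1 to 4. The groups again did not overlap between genotypes, and the fed and fasted KO libraries covered much the same range. The mean was 15.7 ± 6.35 CPM (SD, n = 4) in fed KO and 14.1 ± 4.61 CPM in fasted KO livers, against 0.048 ± 0.072 and 0.131 ± 0.0733 CPM in fed and fasted WT livers. The ratio was 340 (95% exact counting interval 132 to 1248) in the fed state, from 1524 against 4 reads. In the fasted state it was 112 (60.8 to 234), from 1391 against 10 reads.

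**Figure D1:**
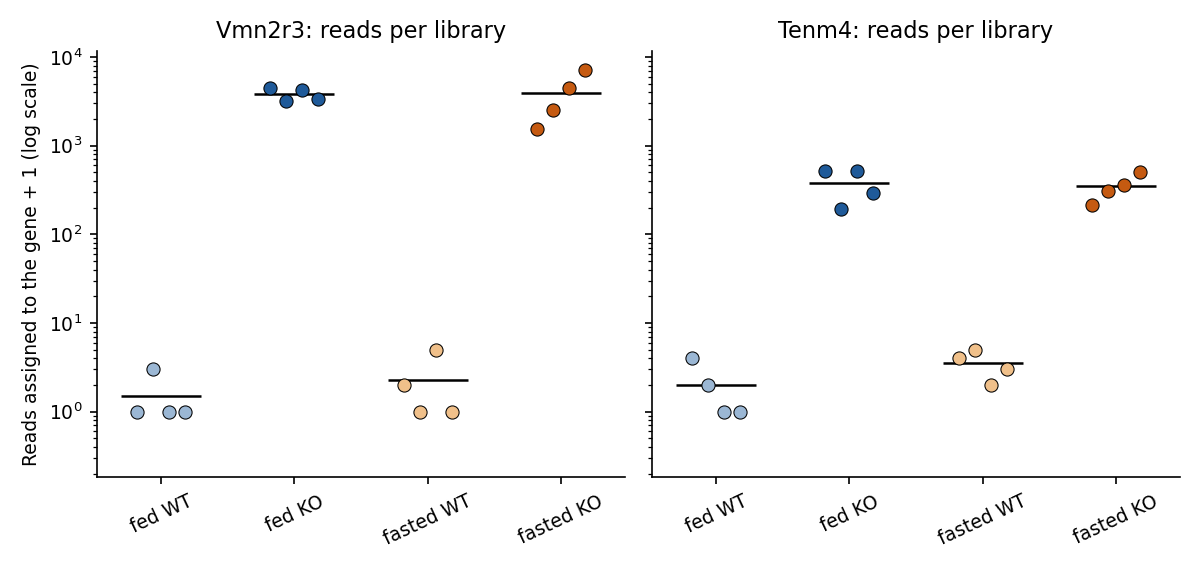
Reads assigned to Vmn2r3 (left) and Tenm4 (right) in each of the 16 libraries, plotted as reads + 1 on a log axis for the 4 groups. Points are libraries in replicate order and bars are group means; the KO libraries hold 1521 to 7111 reads of Vmn2r3 and 192 to 522 of Tenm4, and no WT library holds more than 4 of either.

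Per length, Vmn2r3 was the more abundant of the pair. Its level per kb of exon was 8.99 CPM in fed KO and 9.02 CPM in fasted KO livers, over 17411 bases of merged exons. The level of Tenm4 per kb of exon was 0.746 and 0.669 CPM over 21021 bases. Per kb of the longest coding transcript, 5149 bases for Vmn2r3 and 13172 for Tenm4, the levels were 30.4 and 30.5 CPM for Vmn2r3 and 1.19 and 1.07 CPM for Tenm4. When the 13895 genes tested that had a length were ordered by their level per kb of merged exon, 22.1% stood above Vmn2r3 in fed KO and 21.7% in fasted KO livers. For Tenm4 the shares were 74.2% and 76.4%, and in WT livers 99.8% to 99.9% of genes stood above either. The WT shares follow from the choice of the pair, which required almost no WT reads. Both were among the genes tested only through their KO counts.

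Whether the pair responded to fasting within KO livers was tested. The choice did not use the difference between fed and fasted KO livers. It did require clear counts in both, so a gene lost in either state could not have been chosen. The choice thus disfavoured genes with a very large fasting effect. Vmn2r3 stood at 0.01 ± 0.35 on the log2 scale, fasted minus fed (± SE; adjusted p = 0.992 by edgeR), with a 95% interval of -0.75 to 0.76. Tenm4 had -0.15 ± 0.30 (adjusted p = 0.710), with an interval of -0.81 to 0.50. Changes within these intervals remain compatible with the counts. In the same comparison 41.4% of all 13905 genes tested were called at an adjusted p under 0.05, 21.1% higher and 20.3% lower after the fast. Slc25a47 was among them, at 1.05 ± 0.24 (adjusted p = 0.00319).

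The spread of Vmn2r3 between libraries was wider after the fast, with a coefficient of variation of 15.5% in fed KO and 59.9% in fasted KO livers. For Tenm4 it was 40.5% and 32.8%. The highest library held 1.47 times the Vmn2r3 level of the lowest in fed KO and 4.33 times in fasted KO livers, and for Tenm4 the factors were 2.88 and 2.24. Whether the spreads differ between feeding states was not tested.

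Within the 8 KO libraries, Vmn2r3 and Tenm4 were compared after the mean of each feeding state had been taken away from the log2 CPM values. Libraries with more Vmn2r3 also had more Tenm4, with Pearson r = 0.741 and Spearman rho = 0.810 (n = 8; exact two-sided permutation within feeding state, p = 0.00347 and 0.0174). Over the 3 pairs of Vmn2r3, Tenm4 and Slc25a47, the adjusted permutation p was 0.0104 for r and 0.0521 for rho. Without fasted KO replicates 1 and 4, the farthest from the median of Vmn2r3, r was 0.665. Of the other 13904 genes tested, 5.23% had an r with Vmn2r3 at least as high as that of Tenm4, and 3.94% had such an r with Tenm4. A correlation of this size was thus shared by 727 and 548 genes of the table.

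The level of Slc25a47, from gene counts that do not separate the exons, had a negative r with each of the pair. Neither relation passed after adjustment. Fasted KO replicate 1 had the most Slc25a47 of the KO libraries, 331 CPM, and the least Vmn2r3, 63.8 CPM. Fasted KO replicate 4 had the least Slc25a47 of its group, 163 CPM, and the most Vmn2r3, 276 CPM. In fed KO replicates 1 to 4 Slc25a47 stood at 81.8, 123, 153 and 146 CPM. Vmn2r3 stood at 180, 122, 161 and 162 CPM there, so replicates 2 to 4 did not show the opposite order. Over the 8 KO libraries r was -0.740 and rho -0.857 (exact permutation p = 0.0451 and 0.0556), which did not pass after adjustment over the 3 pairs (0.0677 and 0.0833). Without fasted KO replicate 4 and fed KO replicate 1, r was -0.591. For Slc25a47 and Tenm4, r was -0.510 and rho -0.595 (exact permutation p = 0.212 and 0.174; adjusted 0.212 and 0.174), and r without those 2 libraries was 0.140, so the relation rests on them.

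**Figure D2:**
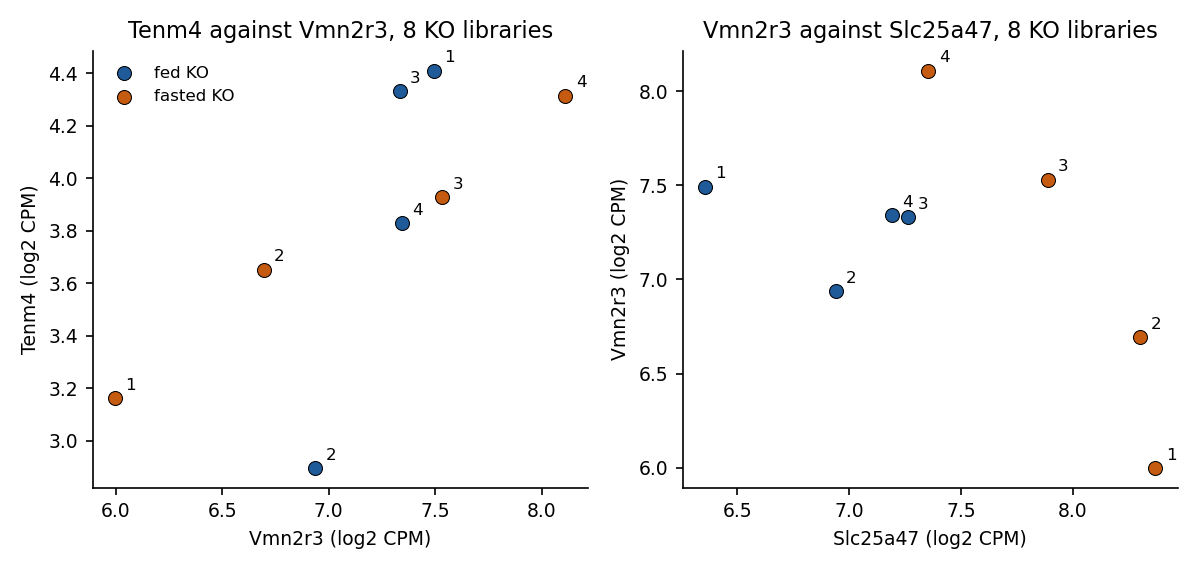
Levels in the 8 KO libraries (log2 CPM), Tenm4 against Vmn2r3 on the left and Vmn2r3 against Slc25a47 on the right; points are libraries, colours the feeding state and digits the replicate. In the left panel fasted KO replicate 1 is lowest for Vmn2r3 and fasted KO replicate 4 highest; in the right panel the same 2 libraries hold the most and the least Slc25a47 of the fasted KO group.

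The pattern itself was rare. Of all 53714 genes, 12 (0.0223%) stayed under 0.5 CPM in each of the 8 WT libraries and reached at least 1 CPM in each of the 8 KO libraries. Vmn2r3 had the largest difference in mean log2 CPM of the 12, 10.28, and Tenm4 the fifth largest, 6.44. Between them stood 3 cytochrome P450 genes, Cyp2b9 at 8.10, Cyp2a4 at 7.38 and Cyp3a44 at 6.87. Cyp3a41a, a further P450 gene, followed at 4.92, with 0 reads in the WT libraries. These P450 genes belong to families with near-identical copies, so their counts are uncertain. The fetal mRNA-binding protein gene Igf2bp3 stood at 4.76 and Hrk, a cell death activator gene of the BCL2 family, at 4.04. The others were Gm6614, Fam19a2, Mab21l3 and Slc24a3, the last at 1.91. A further 124 genes stayed under 1 CPM in all WT and reached 0.5 CPM in all KO libraries without meeting both limits. Gldn missed with a WT maximum of 0.64 CPM and a KO minimum of 6.07 CPM, and Tcf24 with 0.51 and 3.06 CPM. The members had WT maxima of 0.179 CPM for Vmn2r3 and 0.215 CPM for Tenm4 and KO minima of 63.8 and 7.35 CPM. That they met the limits follows from their choice by this pattern.

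**Figure D3:**
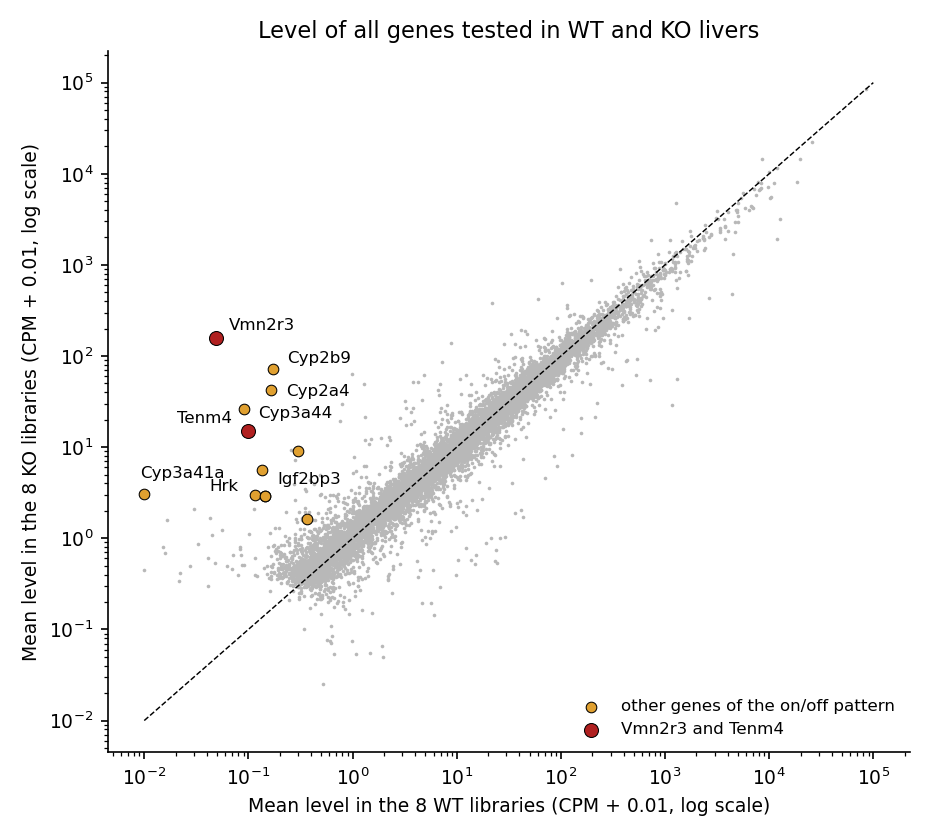
Mean level of the 13905 genes tested in the 8 WT libraries (x axis) and the 8 KO libraries (y axis), both in CPM + 0.01 on log axes, with equal levels along the dashed line. Vmn2r3 and Tenm4 are red and the other 10 genes of the pattern orange; Vmn2r3 lies farthest above the line, and the P450 genes Cyp2b9, Cyp2a4 and Cyp3a44 lie between the pair in difference.

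Among these 12 genes, 4 changed with fasting in KO livers, a share below the 41.4% of all genes called in that comparison and so no result about the pattern. Cyp3a44 fell, at -1.78 ± 0.51 (log2 ± SE; adjusted p = 0.0136 by edgeR), as did Fam19a2 at -0.98 ± 0.24 (adjusted p = 0.00253). Gm6614 rose by 1.53 ± 0.42 (adjusted p = 0.00959) and Mab21l3 by 0.996 ± 0.24 (adjusted p = 0.00288). The calls of Cyp3a44 and Gm6614 were lost when only the 8 KO libraries were fitted (adjusted p = 0.0829 and 0.0738). Genes of the pattern that did not pass the test included Cyp2b9 at -0.45 ± 0.34 (adjusted p = 0.315) and Igf2bp3 at 0.46 ± 0.22 (adjusted p = 0.104). Calls were gained by Igf2bp3 without fed KO replicate 3 (adjusted p = 0.00574), by Cyp2a4 without fed KO replicate 1 (0.0053) and by Hrk without fasted KO replicate 2 (0.0181).

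By the profile over all 16 libraries, centred but not scaled, the gene most like Vmn2r3 was Cyp2b9. Its root mean square difference was 1.21 in centred log2 CPM. Cyp2a4 followed at 1.797, Cyp3a44 at 1.91 and Tenm4 at 2.04, against a median of 5.18 over all genes tested. For Tenm4 the nearest were Cyp2a22 at 0.901, Cyp3a44 at 0.993, and Cyp3a41a and Cyp2a4 at 1.04 each, with a median of 3.28. Vmn2r3 ranked 48th for Tenm4, at the same difference of 2.04. Without scaling, the measure depends on the size of the step between genotypes, by which the pair was chosen. That step was larger for Vmn2r3.

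The relatives of Vmn2r3 were almost silent in all groups. The table holds 240 Vmn2r genes, and the 239 other than Vmn2r3 summed to 7 reads in fed WT, 18 in fed KO, 8 in fasted WT and 36 in fasted KO livers. None of the 239 was tested, for want of reads. Vmn2r5 had 3, 2, 1 and 0 reads in fed KO and 6, 1, 7 and 5 in fasted KO replicates 1 to 4, and 0 in all WT libraries. It is the relative printed above with 10 of 90 bases different. Vmn2r1 had 5 reads in KO and 4 in WT libraries, Vmn2r2 had 3 and 0, and Vmn2r4 and Vmn2r6 had 5 and 0 each. Vmn2r7, the closest relative over the full coding transcript, had 0 reads in every library. The 325 type 1 vomeronasal receptor genes summed to 55 reads in WT and 43 in KO livers when fed, and to 46 and 62 after the fast. The 1407 odorant receptor genes summed to 1671 and 2063 when fed and 1045 and 1670 after the fast.

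The partners of vomeronasal receptors in their own neurons were mostly uncounted. Trpc2, the transduction channel, had 0 reads in all 16 libraries. All 9 H2-M genes of the list were at 0 except for 1 read of H2-M10.1 in fasted WT livers. Gnao1, the G protein subunit, had 40 reads in fed WT, 51 in fed KO, 27 in fasted WT and 33 in fasted KO livers, with a genotype difference of 0.18 ± 0.31 in the fed state (log2; edgeR adjusted p = 0.69). Of 18 listed partners 6 were tested. In the fed genotype comparison 3 were higher and 0 lower, with a median of 0.38, against -0.01 over all genes, of which 14.0% were called higher and 16.9% lower. These were Gnb1, Itpr3 and Ano1. In the fasted comparison 2 were higher, Gnb1 and Ano1, and 0 lower, with a median of 0.13 and 13.8% of all genes higher and 14.5% lower. The Itpr3 call was lost without any 1 of fed KO replicates 1 and 3 and fed WT replicates 2 and 3 (adjusted p up to 0.0944). The fasted Gnb1 call was lost without fasted KO replicate 1, 2 or 4 or fasted WT replicate 2 or 3 (up to 0.0792), and the fasted Ano1 call without fasted KO replicate 1 or fasted WT replicate 1 or 4 (up to 0.0703). With fasting in KO livers 2 of the 6 were lower, Gnb1 by -0.27 ± 0.06 and the class I light chain gene B2m by -0.32 ± 0.09 (edgeR adjusted p = 0.00128 and 0.0104), with a median of -0.18; of all genes 20.3% were lower in that comparison.

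Markers of vomeronasal and olfactory neurons summed to 0.268 to 1.17 CPM in WT and 0.334 to 1.23 CPM in KO libraries, over 8 genes. Trpc2 was at 0 throughout, and Omp, the marker of mature olfactory neurons, had 14 reads in WT and 17 in KO livers when fed and 8 in each after the fast. The ranges of the summed level overlapped between genotypes in both feeding states, and only Gnao1 had enough reads to be tested.

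Teneurins other than Tenm4 had different profiles. Tenm3 was counted in all groups, at 11.3 ± 1.59 CPM (SD, n = 4) in fed WT, 12.6 ± 3.69 in fed KO, 18.4 ± 2.27 in fasted WT and 29.7 ± 6.30 in fasted KO livers. When fed, its genotype difference was 0.16 ± 0.19 (log2, edgeR adjusted p = 0.547). After the fast it was higher in KO livers by 0.68 ± 0.19 (adjusted p = 0.0115), and it rose by 1.23 ± 0.19 with fasting in KO livers (adjusted p = 9.55e-05). Without fasted WT replicates 2 and 4, the libraries richest in pancreatic acinar transcripts, the fasted genotype value was 0.74 ± 0.25 and lay at the threshold (adjusted p = 0.050017). Tenm2 had 0 reads in fed WT and 1 in fasted WT livers. It had 8, 1, 1 and 0 reads in fed KO and 7, 8, 12 and 20 in fasted KO replicates 1 to 4, too few to be tested. All 4 fasted KO libraries exceeded every WT library for Tenm2, whereas 1 fed KO library had no read. Tenm1 had 1 read in all, in a fed KO library.

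The teneurin list also holds the latrophilins, which bind teneurins across the cell gap, and the FLRT proteins, which bind latrophilins. Of its 7 tested genes other than Tenm4, 0 were called in the fed genotype comparison by edgeR or DESeq2 (Adgrl1 and Adgrl2 had an unadjusted p under 0.05), with a median of 0.16. In the fasted comparison Tenm3 was higher and Adgrl2 lower, the latter at -0.30 ± 0.10 (edgeR adjusted p = 0.0307), with a median of 0.14. The Adgrl2 call was lost without fasted KO replicate 3 or 4 or fasted WT replicate 1 or 3 (adjusted p up to 0.11) and with library totals (adjusted p = 0.36). With library totals 3 of the 7 were higher in the fed comparison, Adgrl1, Adgrl4 and Flrt2. Adgrl1 stood at 0.35 ± 0.15 (adjusted p = 0.0761) and Flrt2 at 0.57 ± 0.31 (adjusted p = 0.17) with TMM scaling. Adgrl3 had 8 to 14 reads and Flrt3 7 to 23 reads per group and neither was tested. With fasting in KO livers Tenm3 rose and the 6 others were not called.

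Genes linked to CHOP and ATF4, transcription factors of the integrated stress response, were described because Tenm4 was once named for CHOP. Of 22 listed genes 20 were tested. In the fed genotype comparison 13 were higher and 3 lower, with a median of 0.57, and in the fasted comparison 13 were higher and 1 lower, with a median of 1.13. Of all genes tested 14.0% were higher and 16.9% lower in the fed and 13.8% and 14.5% in the fasted comparison, with medians of -0.01 and 0.01. Without the filter on low counts the fed counts were 10 higher and 1 lower. Ddit3, which encodes CHOP, was at 3.33 ± 0.996 CPM (SD, n = 4) in fed WT, 11.4 ± 4.27 in fed KO, 3.93 ± 1.59 in fasted WT and 37.2 ± 14.1 in fasted KO livers. It rose by 1.78 ± 0.37 on the log2 scale when fed (adjusted p = 0.00283 by edgeR) and by 3.24 ± 0.37 after the fast (2.9e-05). It also rose with fasting in KO livers, by 1.71 ± 0.33 (adjusted p = 0.00104). The difference between its fasting response and that of Vmn2r3 or Tenm4 was not tested.

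Atf4 rose by 0.43 ± 0.10 in fed and 0.73 ± 0.10 in fasted KO livers (log2; edgeR adjusted p = 0.00286 and 2.6e-05). Atf5, a related factor, rose by 2.05 ± 0.12 and 1.68 ± 0.11. Psat1 and Asns, enzymes of serine and asparagine synthesis, rose by 4.61 ± 0.25 and 3.81 ± 0.36 in the fed state and by 4.75 ± 0.24 and 3.61 ± 0.34 in the fasted state. Vldlr, a lipoprotein receptor gene, rose by 4.63 ± 0.29 and 3.74 ± 0.25. Those that were lower in the fed state were Chac1, a glutathione-degrading enzyme gene, at -1.12 ± 0.34, the splicing-regulated factor gene Xbp1 at -0.57 ± 0.18 and the oxidoreductase gene Ero1l at -0.39 ± 0.09 (adjusted p = 0.0214, 0.024 and 0.00364). Chac1 went the other way in the fasted comparison, where it was higher at 1.86 ± 0.41 (edgeR adjusted p = 0.00344). Among the fed higher calls, those of Atf3, Eif2ak3 and Sesn2 were each lost in several refits without 1 library. For Atf3 these were the refits without fed KO replicate 3 or 4 or fed WT replicate 2, 3 or 4 (adjusted p up to 0.0728). For Eif2ak3 they were those without fed KO replicate 2 or 3 or fed WT replicate 1 or 2 (up to 0.107), and for Sesn2 those without fed KO replicate 2, 3 or 4 or fed WT replicate 1 or 2 (up to 0.131). The fed Chac1 call was lost without fed KO replicate 3 or 4 (adjusted p up to 0.0658), and the fed Xbp1 call without either of these or fed WT replicate 1 or 2 (up to 0.0738). In the fasted state the lower gene was Hspa5, a chaperone gene of the endoplasmic reticulum, at -0.47 ± 0.15 (adjusted p = 0.0213), a call lost without fasted KO replicate 1 or 3 or fasted WT replicate 2 or 4 (up to 0.0795), and without both of the latter (0.351). With library totals none of the 20 was lower in either comparison. Car6, named DOC1 in the work that named DOC4, had 2 reads in fed KO livers and 0 in the other groups.

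**Figure D4:**
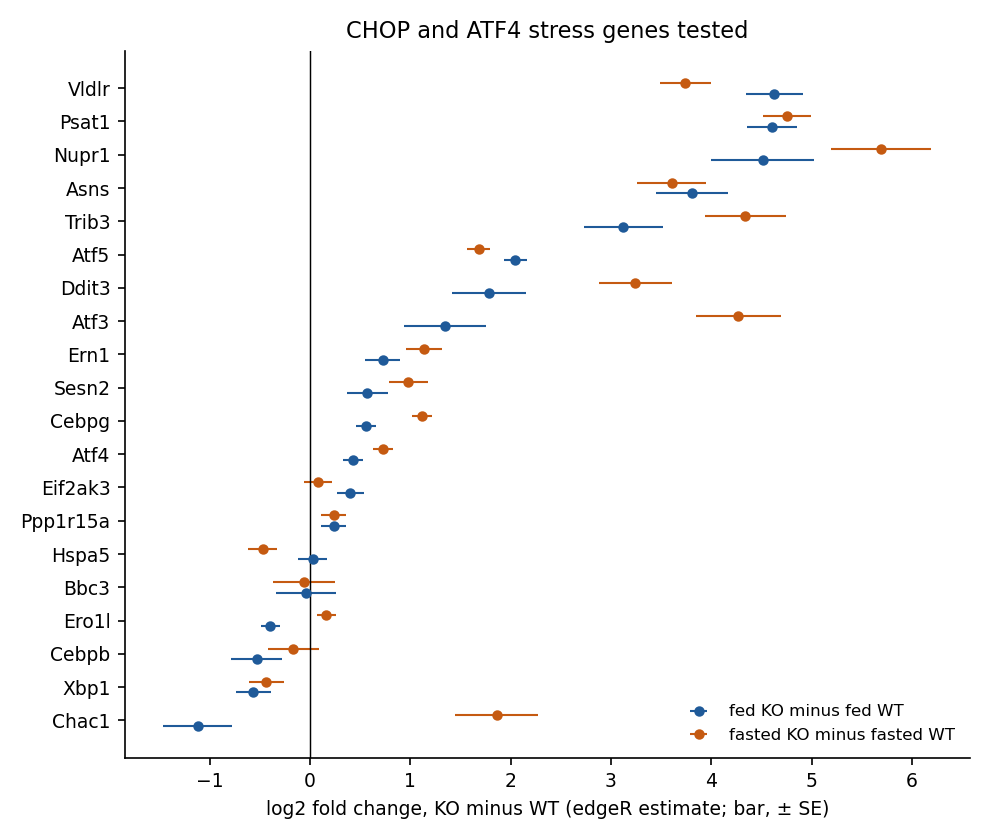
Log2 fold change, KO minus WT, of the 20 tested genes linked to CHOP and ATF4 in the fed and the fasted state; points are edgeR estimates and bars ± 1 SE. Ddit3 lies at 1.78 in the fed and 3.24 in the fasted state, and Psat1 and Vldlr lie above 3.5 in both.

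None of the genes around the members met the on/off limits, although some with few reads had them in KO libraries alone. Those among Vmn2r1 to Vmn2r7 were Vmn2r2, Vmn2r4, Vmn2r5 and Vmn2r6, with the counts given above, and Mir708 inside Tenm4 is described with its host gene. Within 500 kb of Vmn2r3 the annotation has 32 other genes, of which 20 had no read in any library and 4 were tested. In the fed comparison 0 of the 4 were called by edgeR, with Slc33a1 at an unadjusted p under 0.05, and in the fasted comparison Slc33a1, an acetyl-CoA transporter gene, was lower at -0.46 ± 0.07 (adjusted p = 0.000124). Slc33a1 was also called in the fed comparison by DESeq2, at -0.18 ± 0.07 (adjusted p = 0.0478). Gmps, the nearest gene tested and an enzyme gene of GMP synthesis, lay 234635 bases away and stood at -0.02 ± 0.08 in the fed and 0.01 ± 0.08 in the fasted state. It was higher in the fed state with library totals, at 0.20 ± 0.08 (adjusted p = 0.0484). The untested neighbours together had 59 reads in KO and 16 in WT libraries, 25 of the former being those of Vmn2r5.

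Within 500 kb of Tenm4 there are 20 other genes, of which 9 had no read and 6 were tested. In the fed comparison 0 were higher and 2 lower, and in the fasted comparison 0 were called by edgeR or DESeq2, with Alg8 alone at an unadjusted p under 0.05. Nars2, the mitochondrial asparaginyl-tRNA synthetase gene 40411 bases beyond the end of Tenm4, was lower at -0.56 ± 0.08 in the fed state (log2; edgeR adjusted p = 5.12e-05). Kctd21 was lower at -0.35 ± 0.11 (adjusted p = 0.0173), a call lost without fed WT replicate 4 (adjusted p = 0.0703) and with library totals (adjusted p = 0.344). With library totals 3 were higher and 1 lower in the fed state and 2 higher and 0 lower in the fasted state. One of them was Gab2, a signalling adaptor gene, at 0.46 ± 0.17 and 0.43 ± 0.17. Among tested neighbours the largest difference was 0.458 on the Vmn2r3 side and 0.556 on the Tenm4 side in absolute log2 terms with TMM scaling.

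**Figure D5:**
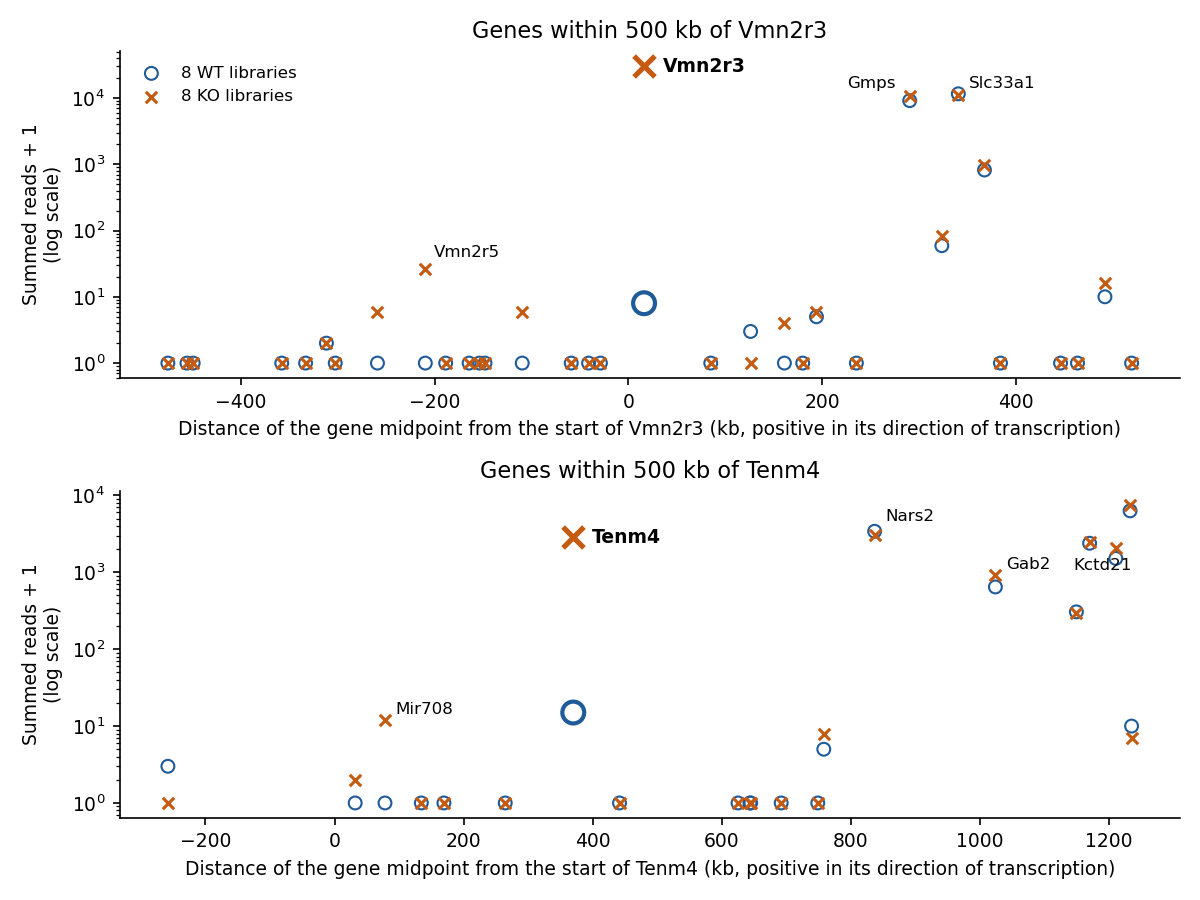
Summed reads + 1 (log axis) of each annotated gene within 500 kb of Vmn2r3 (top) and Tenm4 (bottom), by the distance of its midpoint from the start of the member in kb; circles sum the 8 WT and crosses the 8 KO libraries, and large symbols are the members. Circles and crosses nearly coincide for the tested neighbours such as Gmps, Slc33a1 and Nars2, and part widely for Vmn2r3 and Tenm4. The sums are not scaled for library size and join both feeding states. They thus do not show the lower calls of Nars2 when fed and Slc33a1 after the fast.

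Of the 11 genes that overlap Tenm4, 8 had no read in any library. The microRNA gene Mir708 lies in an intron of Tenm4 on the same strand. Its mature sequences, from RefSeq on GRCm38.p6, are shown because their host gene is one of the pair, with the seed (bases 2 to 8) in capitals. The first is at chr7:96249450-96249472 and the second at chr7:96249496-96249517, both on the plus strand.
mmu-miR-708-5p: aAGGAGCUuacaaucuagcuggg
mmu-miR-708-3p: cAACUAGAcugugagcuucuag
Reads assigned to the Mir708 gene numbered 1, 0, 3 and 7 in fasted KO replicates 1 to 4 and 0 in the other 12 libraries. Poly(A) libraries do not measure mature microRNAs, and reads of the gene and of the host intron cannot be told apart. Mir6394, a further microRNA gene inside Tenm4, had 0 reads.

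Markers of other liver cells were set beside the pair, since Tenm4 is known from non-hepatocyte lineages. The background for each count is the share of all genes called, 14.0% higher and 16.9% lower in the fed and 13.8% and 14.5% in the fasted genotype comparison. Of 8 stellate cell markers 6 were higher and 0 lower in fed KO livers, or 8 and 0 with library totals. In fasted KO livers 3 were higher and 0 lower, or 5 with library totals and 1 without fasted WT replicates 2 and 4. Their summed level was 144 to 178 CPM in fed WT, 212 to 233 in fed KO, 126 to 148 in fasted WT and 154 to 187 in fasted KO libraries. With fasting in KO livers 4 of the 8 fell (Des, Pdgfrb, Col1a1 and Col3a1) and 0 rose, against 20.3% lower and 21.1% higher of all genes. Tenm4 was not called, and whether its fasting response differs from those of these markers was not tested. Of 5 tested Schwann and glial markers 2 were higher in fed and 1 in fasted KO livers, or 0 in fasted KO livers without fasted WT replicates 2 and 4, with summed levels of 5.44 to 8.20 CPM in WT and 5.50 to 9.42 CPM in KO libraries. The defining glial gene Sox10 had 0 reads in WT, 3 in fed KO and 1 in fasted KO livers, and Mog had 1 read in fed KO livers and 0 elsewhere. S100b had 1 read in WT and 9 in KO livers when fed, and 3 and 4 after the fast. Endothelial, lymphocyte and bile duct markers had 0 called by edgeR in either genotype comparison, of 7, 7 and 6 tested. At an unadjusted p under 0.05 there were 1, 0 and 4 in the fed and 0, 0 and 2 in the fasted state, and DESeq2 called 1 bile duct marker in each, Krt19 higher when fed and Sox9 lower after the fast. With library totals 4 bile duct markers were higher when fed and 0 after the fast, and 4 endothelial markers were higher in each state, while lymphocyte markers had 0 called. Macrophage markers had 1 of 7 higher in each state, close to the background share, or 4 when fed and 2 after the fast with library totals. The fasted one, Cd68, was not called without fasted KO replicate 1 (adjusted p = 0.0671), fasted WT replicate 3 (0.0571) or fasted WT replicates 2 and 4 together (0.0875). Hepatocyte markers had 0 of 8 higher and 4 lower in each state. With library totals 2 were lower in each and 1 was higher after the fast. Pancreatic acinar markers summed to 4.54 to 61.2 CPM in all libraries but those of fasted WT, where the sum reached 1397 CPM. The part of these other cells in the levels of Vmn2r3 and Tenm4 was not tested.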

How the data were processed

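The deposited table holds raw counts of reads for each gene, which the authors did not normalize. The submitters' processing notes list HTSeq 0.9.1, STAR 2.5.3a and cutadapt 1.8, with the build GRCm38. How strand was handled and which annotation was counted is not given in the sources used here. GENCODE M21 held 99.8% of the 53714 gene identifiers. Summary lines that name no gene (reads aligned to several places 32.0% to 45.8% of counts, without a gene 2.98% to 4.29%, ambiguous 1.05% to 1.65%) were left out. Replicates differed by more than counting noise (mean chi-square per gene 7.41 to 103 over 24 pairs), so none was merged.

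In R 4.3.3, genes passing filterByExpr of edgeR 4.0.16 (13905) were scaled by TMM (0.903 to 0.966 for WT libraries, 1 to 1.141 for KO libraries) and fitted with 1 coefficient per group over 16 libraries. Contrasts were tested with the robust quasi-likelihood F test, Benjamini-Hochberg adjusted over all genes tested, with a threshold of 0.05. SE is the log2 fold change over the square root of F; its 95% interval uses 12 residual degrees of freedom. CPM have no prior count and log2 CPM a prior count of 2. Counting intervals and the limit of 3 reads cover counting error only. In data simulated for the fasted KO minus fed KO comparison with 13765 genes, the fit recovered 47 of 67 genes at 1.5-fold, 62 of 67 at 2-fold and 64 of 66 at 4-fold, with 16 false calls.

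The members and gene lists were chosen with earlier results of these data known. Genes named besides them followed a rule: the 8 genes of the on/off pattern with the largest difference outside predicted genes, the 4 nearest profiles of each member, the 3 nearest genes on each side, Vmn2r1 to Vmn2r7, teneurins, latrophilins and FLRT genes, and Ddit3, Atf4 and the 4 stress genes with the smallest fed p. Gm6614, Fam19a2, Mab21l3, Slc24a3, Gldn, Tcf24, Slc33a1, Kctd21, Alg8, Chac1, Xbp1, Ero1l, Hspa5, Atf3, Eif2ak3, Sesn2 and the named cell type markers and the named signalling partners were chosen after their values were seen. Alternatives were other scalings, filters and limits, DESeq2 1.42.0, no robust estimation, a replicate block, fewer libraries and each library left out.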

Additional observations from a re-analysis of the deposited data

Results flagged for a closer look

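Among 31 genes, with their levels tested in 115 groups of 4 libraries, 5 values stood far from the other 3 of their group; chance gives about 1 in 20 groups. Adgrl4, a latrophilin-related receptor gene, was at 22.1 CPM in fed WT replicate 2 and 19.1 to 19.6 CPM in the other 3. Flrt1 was at 0.101 CPM in fed WT replicate 1, below 0.392 to 0.440 CPM in the others, and at 0.672 CPM in fasted WT replicate 4, above 0.161 to 0.212 CPM. Ddit3 was at 6.30 CPM in fasted WT replicate 4, where the other 3 held 2.92 to 3.34 CPM. Asns was at 87.8 CPM in fasted KO replicate 4, above 65.1 to 68.7 CPM. Neither Vmn2r3 nor Tenm4 had such a value in the groups tested.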

How the results depend on the processing

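Both members, chosen by this pattern, met the on/off limits under all 22 alternatives to them, which is a description and no support. The number of genes doing so was 20 with a KO minimum of 0.5 CPM, 7 with 2 CPM, 4 with a WT limit of 0.25 CPM and 19 with 1 CPM, and 12 to 13 without 1 library. The fasting values in KO livers stayed uncalled in all 15 alternatives for each member; without 1 library they ranged from -0.41 to 0.25 for Vmn2r3 and from -0.39 to 0.02 for Tenm4 (adjusted p from 0.299 and 0.208 upward). Without 1 library r ranged from 0.664 to 0.892 for Vmn2r3 with Tenm4 (adjusted p 0.0208 to 0.0417, exact permutation), from -0.835 to -0.504 for Slc25a47 with Vmn2r3 and from -0.784 to -0.329 for Slc25a47 with Tenm4. The second of these passed the threshold only without fed KO replicate 2, at -0.761 (exact permutation, adjusted p = 0.0208). Genes called without 1 library numbered 3202 to 4492 for the fed genotype, 3036 to 3771 for the fasted genotype and 5073 to 5561 for fasting in KO. With library totals the share of called genes that were higher moved from 45.3% to 84.2%, 48.8% to 82.7% and 51.0% to 38.1% in these comparisons, with the median of all genes at 0.21, 0.20 and -0.09. Between libraries with the same replicate number, correlations of deviations were -0.174 to 0.251 over 24 pairs, 3 over 0.1. They were not set against libraries with different numbers, so whether the numbers pair the libraries was not tested. With the replicate number as a block the fasting values were -0.17 for Vmn2r3 and -0.10 for Tenm4, and 4340, 3927 and 5826 genes were called; fasting in KO livers was then called for Cyp2b9 at -0.57 (adjusted p = 0.0227) and Igf2bp3 at 0.51 (0.0475), and of bile duct and macrophage markers 2 and 4 were higher when fed. Depth limits the WT levels, which rest on at most 4 reads per library.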
